A study of Mus musculus with 15 samples.

Results

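The oogenesins and their relatives belong to the PRAME family of leucine-rich repeat proteins, and 14 of the 14392 genes in the deposited expression table carry their names. The members were taken by name alone, as every entry that starts with Oog and a digit, with Pramel or with Pramef. They comprise 4 oogenesins (Oog1 to Oog4), 4 Pramef genes (Pramef6, Pramef8, Pramef12 and Pramef17) and 6 Pramel genes (Pramel1 and Pramel3 to Pramel7). RefSeq now lists the Pramef genes under Pramel names, with Pramef6 as Pramel11, Pramef8 as Pramel12, Pramef12 as Pramel13 and Pramef17 as Pramel14.

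RNA was sequenced from zygotes and 2-cell embryos by Smart-seq2, in 8 libraries of 10 pooled embryos each, with 2 libraries for each combination of stage and genotype. WT embryos came from wild-type C57BL/6 females mated with WT males. The cKO embryos came from Usp16fl/fl;Gdf9-Cre females of the same background, also mated with WT males, and are labelled Usp16 maternal − and paternal +. Gdf9-Cre acts in oocytes from the primordial follicle stage onward, so the mothers' oocytes grew without the gene while each embryo received an intact paternal copy. Superovulated immature females supplied the embryos, and the labels name no separate animals or cultures behind the libraries of a group. The p-values below therefore measure only the spread between these libraries. Whole-embryo RNA does not separate transcripts inherited from the oocyte from those made by the embryo, nor maternal from paternal alleles.

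Genes of the PRAME family lie in tandem clusters in the mouse genome and have multiplied in rodents. Oogenesins are transcribed in growing oocytes and their products are carried into the early embryo, whereas Pramel6 and Pramel7 act in the pluripotent cells of the embryo, where PRAMEL7 works with a Cullin 2 ubiquitin ligase to degrade UHRF1, a protein that maintains DNA methylation. USP16 is a deubiquitinase that removes ubiquitin from histone H2A, a mark that Polycomb repressive complexes place at silent genes.

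Usp16 itself stood at 184 and 187 FPKM (fragments mapped to a gene, scaled by its exon length and by all mapped fragments) in the WT zygote libraries and at 16.8 and 22.0 in the cKO zygote libraries. In 2-cell embryos it stood at 168 and 183 FPKM in WT and at 168 and 84.8 in cKO embryos. Both cKO zygote libraries lay below both WT zygote libraries, as their labels require. At the 2-cell stage, where the paternal copy can be transcribed, the values of cKO replicate 1 and the WT libraries were alike, so Usp16 does not check the labels of the 2-cell libraries. The table holds FPKM without read counts, values under 1 had been set to a floor of 1, and the depth of each library is therefore unknown.

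Marker genes showed the labelled stages. Of 12 oocyte and zygote markers, all 12 were in the table. Their summed FPKM was 22407 and 24296 in WT and 23805 and 24619 in cKO zygotes, followed by 11236 and 9007 in WT and 7320 and 11948 in cKO 2-cell embryos. Oosp1 was the most abundant of them in every WT library and in cKO zygote replicate 2, and Dppa3 in the other cKO libraries. Dppa3 made up most of the cKO 2-cell sums, at 5888 and 8774 FPKM, and without it the sums were 8278 and 6535 in WT and 1431 and 3173 in cKO 2-cell embryos. By limma with Benjamini-Hochberg adjustment, 8 of the 12 markers were lower and 1 (Dppa3) was higher in cKO than in WT 2-cell embryos, against 24.6% and 6.16% of all genes. Bmp15 was 7.25-fold lower there, and Btg4 5.09-fold lower, or 8.46-fold without cKO 2-cell replicate 2. Like Dppa3, Zp3 and Gdf9 had higher means in cKO than in WT 2-cell embryos, at ratios of 1.42 and 1.27, but were not called. Most of these markers were thus lower, as were the means of the 4 oogenesins described below, of which Oog1 and Oog4 passed limma. The part of these markers in those results was not tested. Of 18 markers of 2-cell embryos, 10 were in the table, with sums of 12.5 and 11.4 FPKM in WT zygotes and 15.5 and 12.7 in cKO zygotes, close to the floor. These sums reached 665 and 961 FPKM in WT and 234 and 318 in cKO 2-cell embryos, with Zfp352 the most abundant. All 4 zygote libraries were thus low, and both cKO 2-cell libraries lay below both WT 2-cell libraries for this list. Fewer embryos past a stage and less RNA per embryo cannot be told apart in pooled libraries, and the part of developmental stage in the results below was not tested.

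Markers of other cell types were sparse. Of 14 cumulus and granulosa cell markers, 4 were in the table, with Fshr, Inha and Amh absent. Their sums were 29.7, 25.3, 25.8 and 25.6 FPKM in the zygote libraries, mostly from Cyp19a1, and 33.9, 43.0, 21.4 and 21.1 in those of WT and cKO 2-cell embryos. Amhr2, the most abundant of them at the 2-cell stage, was at the floor in every zygote library and at 29.5, 32.7, 18.4 and 17.8 FPKM in the 2-cell libraries. Of 10 sperm and spermatid markers, 5 were listed, with sums of 26.7, 18.2, 21.1 and 20.2 FPKM in the zygote libraries, mostly from Prm2, and of 29.1, 32.3, 17.6 and 60.9 at the 2-cell stage, where Ldhc was the most abundant. Of 9 leukocyte and erythroid markers, 5 were listed, and their sum did not exceed 20.9 FPKM in any library, with Hba-a2 the most abundant over the 8 libraries together and Ptprc absent.

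Summed over its 14 members, the family reached 3914 and 3503 FPKM in WT and 3591 and 3284 in cKO zygotes, followed by 2263 and 2313 in WT and 1532 and 1858 in cKO 2-cell embryos. All 4 zygote libraries exceeded all 4 2-cell libraries, the zygotes of the 2 genotypes overlapped, and both cKO 2-cell libraries lay below both WT 2-cell libraries. The mean at the 2-cell stage was 2288 ± 35.6 FPKM in WT (SD, n = 2) and 1695 ± 230.5 in cKO embryos, 1.35-fold lower, but this direction reversed after median-ratio scaling, in which the typical gene of each library is brought to its geometric mean over the 8 libraries, and which gave 1855 in WT and 1946 in cKO embryos. As a share of all FPKM in the library, which no scaling changes apart from the floor, the family made up 0.661% and 0.628% in WT and 0.605% and 0.566% in cKO zygotes, followed by 0.392% and 0.422% in WT and 0.263% and 0.241% in cKO 2-cell embryos. The sum of all FPKM was 770989 in cKO 2-cell replicate 2 and between 547752 and 593317 in the other 7 libraries.

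A single gene dominated the sum of the 14 members. That sum leaves out the family genes under older names, of which Gm13023 stood at 1329 and 1195 FPKM in WT zygotes. Oog3 held 62.1% and 66.0% of the family sum in WT zygotes, 70.1% and 68.0% in cKO zygotes, 72.7% and 74.3% in WT and 59.0% and 63.5% in cKO 2-cell embryos. Without Oog3, the 2-cell sums were 617 and 595 FPKM in WT and 629 and 678 in cKO embryos, so that the cKO libraries lay above the WT libraries.

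Grouped by name alone, the 3 sets of members differed in how these sums were made up. Genes that now carry Pramel names but stood under older names, described below, did not all follow the pattern of the 6 Pramel genes. The 4 oogenesins summed to 3761 and 3377 FPKM in WT and 3470.2 and 3173 in cKO zygotes, followed by 1834 and 1878 in WT and 946 and 1249 in cKO 2-cell embryos. The 4 Pramef genes summed to 147 and 120.1 FPKM in WT and 115 and 104 in cKO zygotes, followed by 90.4 and 91.4 in WT and 32.0 and 31.3 in cKO 2-cell embryos. The 6 Pramel genes were all at the floor in every zygote library, and summed to 338 and 343 FPKM in WT and to 554 and 578 in cKO 2-cell embryos. In 2-cell embryos the oogenesin mean was thus 1.69-fold lower, the Pramef mean 2.87-fold lower and the Pramel mean 1.66-fold higher in cKO than in WT embryos, with no overlap between the genotypes in any of the 3 name groups. The Pramel genes made up 14.9% and 14.8% of the family sum in WT and 36.2% and 31.1% in cKO 2-cell embryos.

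**Figure D1:**
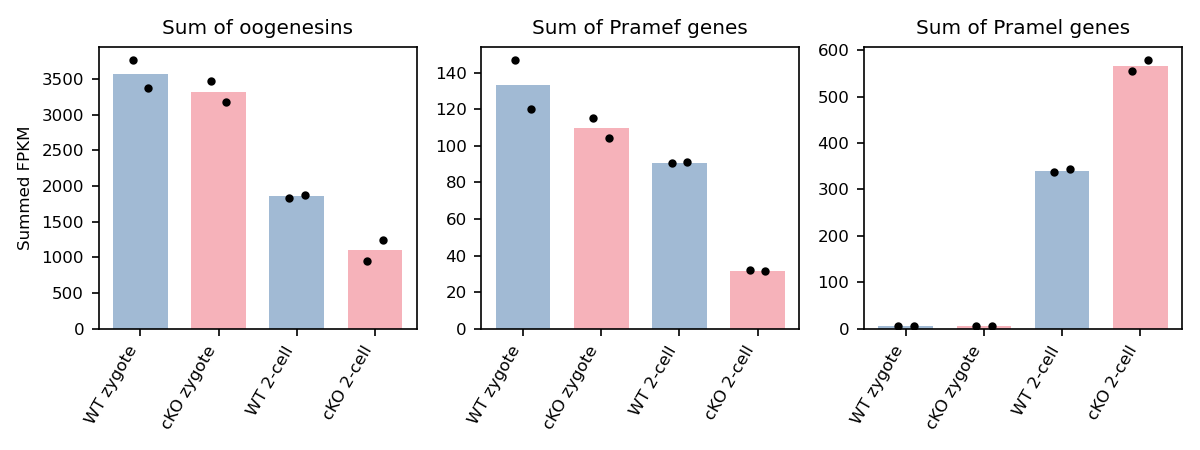
Summed FPKM of the oogenesins, the Pramef genes and the Pramel genes in each of the 8 libraries, by stage and genotype. Bars are group means, in blue for WT and red for cKO, and each black point is a library. At the 2-cell stage the cKO points lie below the WT points for the oogenesins and the Pramef genes and above them for the Pramel genes.

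**Figure D2:**
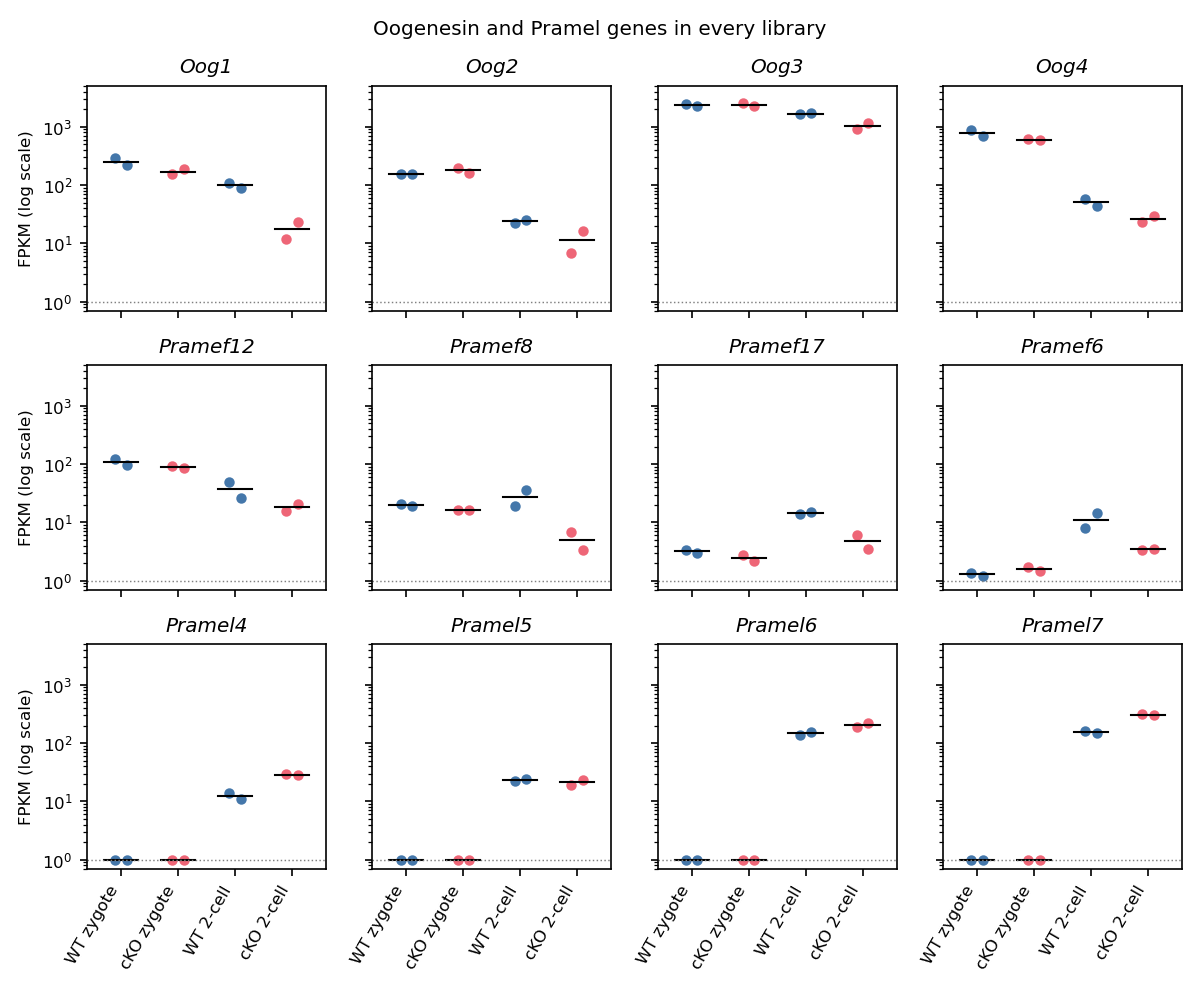
FPKM of the 12 family members with a mean above 3 FPKM in at least 1 group, in the 8 libraries on a log axis. Blue is WT and red is cKO. Each point is a library, each line a group mean, and the dotted line the floor of 1. The points of the oogenesins and Pramef12 lie lower in 2-cell embryos than in zygotes, although the difference of Oog3 between the WT stages did not pass limma. Pramel4 to Pramel7 leave the floor only at the 2-cell stage, and Pramef6 and Pramef17 rise from low zygote values.

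Of the 14 members, 12 had a mean above 3 FPKM in at least 1 group. The other 2 were Pramel1 and Pramel3, relatives known from the testis. Pramel1 was at the floor in 5 of 8 libraries and did not exceed 2.76 FPKM, and Pramel3 was at the floor in 7 libraries and reached 1.14 FPKM in cKO 2-cell replicate 2.

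Oog1, the founding oogenesin, stood at 288 and 217 FPKM in WT and 153 and 187 in cKO zygotes, followed by 107 and 90.7 in WT and 12.0 and 22.9 in cKO 2-cell embryos. The 4 groups did not overlap and fell in that order, with both cKO 2-cell libraries far under all others. The cKO 2-cell mean of 17.4 ± 7.68 FPKM (SD, n = 2) was 5.68-fold lower than the WT mean of 99.0 ± 11.8. In limma with Benjamini-Hochberg adjustment over all genes, the log2 difference was -2.50 with a standard error of 0.334 and an adjusted p of 0.00453, and the adjusted p ranged from 0.00239 to 0.0740 over 11 alternatives. The WT mean also fell 2.55-fold from zygotes to 2-cell embryos (limma with Benjamini-Hochberg adjustment, adjusted p 0.0174). That call was lost without WT zygote replicate 1 (adjusted p 0.101), WT 2-cell replicate 1 (0.0750) or WT 2-cell replicate 2 (0.111) in the same limma test, with a range of 0.0108 to 0.111 over its alternatives. In cKO embryos the fall from zygotes was 9.74-fold.

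Oog2 stood at 152 and 155 FPKM in WT and 196 and 162 in cKO zygotes, followed by 22.8 and 25.1 in WT and 6.71 and 16.5 in cKO 2-cell embryos. Both cKO libraries were above WT in zygotes and below WT at the 2-cell stage, where the cKO libraries differed widely from each other. The 2-cell mean was 2.06-fold lower in cKO embryos, and 3.57-fold lower without cKO 2-cell replicate 2. The limma test with Benjamini-Hochberg adjustment gave a log2 difference of -1.10 with a standard error of 0.381 and an adjusted p of 0.0745, which fell to 0.00430 without cKO 2-cell replicate 2, within a range of 0.00430 to 0.393 over 11 alternatives. From zygotes to 2-cell embryos, Oog2 fell 6.42-fold in WT (limma with Benjamini-Hochberg adjustment, adjusted p 0.00206) and 15.4-fold in cKO embryos, the latter being 26.7-fold without cKO 2-cell replicate 2.

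Oog3 had the highest level in the family, with 2429 and 2312 FPKM in WT and 2516 and 2232 in cKO zygotes, followed by 1646 and 1718 in WT and 904 and 1180 in cKO 2-cell embryos. The zygotes of the 2 genotypes overlapped, and each 2-cell group lay below them, with the cKO embryos lowest. By group mean, Oog3 ranked 28 in WT and 26 in cKO zygotes among the 14392 genes, and 22 in WT and 105 in cKO 2-cell embryos. The 2-cell mean was 1042 ± 195.2 FPKM in cKO and 1682 ± 51.4 in WT embryos (SD, n = 2), 1.61-fold lower. In limma with Benjamini-Hochberg adjustment, the log2 difference was -0.70 with a standard error of 0.255 and an adjusted p of 0.0853, outside the threshold of 0.05. It passed without cKO 2-cell replicate 2 (limma adjusted p 0.0190), and 3 of its 11 alternatives passed within a range of 0.00861 to 0.720. Its fall from WT zygotes to WT 2-cell embryos was 1.41-fold and did not pass limma with Benjamini-Hochberg adjustment (adjusted p 0.159), except without cKO 2-cell replicate 1 (0.0331) or 2 (0.0332).

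Oog4 fell steeply between the stages. It stood at 892 and 694 FPKM in WT and 606 and 592 in cKO zygotes, followed by 58.3 and 43.9 in WT and 23.4 and 29.7 in cKO 2-cell embryos. Each group lay below the one before it without overlap. The WT mean fell 15.5-fold from zygotes to 2-cell embryos (limma with Benjamini-Hochberg adjustment, log2 difference -3.93, adjusted p 0.000135), and the cKO mean fell 22.6-fold. By rank among all genes, Oog4 went from 97 in WT zygotes to 2086 in WT 2-cell embryos, and from 146 in cKO zygotes to 3065 in cKO 2-cell embryos. Between the genotypes at the 2-cell stage, the mean was 1.93-fold lower in cKO embryos, with a limma log2 difference of -0.91, a standard error of 0.240 and a Benjamini-Hochberg adjusted p of 0.0331. This call was lost without WT 2-cell replicate 1 (limma adjusted p 0.118), without cKO 2-cell replicate 1 (0.0716) with the replicate number as a block (0.0507), with quantile normalization (0.0893) and with median-ratio scaling (0.317), and it held in 4 of 11 alternatives, with a range of 0.0313 to 0.317. It was also lost when a zygote library, which enters only the error of this comparison, was left out, with limma adjusted p-values of 0.0506 and 0.0507 without WT zygote replicate 1 and 2 and of 0.0749 and 0.0751 without cKO zygote replicate 1 and 2.

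Among the Pramef genes, Pramef12 was the highest in zygotes and behaved like an oogenesin in its stages, with 121 and 96.9 FPKM in WT and 94.2 and 84.3 in cKO zygotes, followed by 49.1 and 26.3 in WT and 15.9 and 21.0 in cKO 2-cell embryos. The groups again fell in that order without overlap, and the WT 2-cell libraries lay far apart. The 2-cell mean was 2.05-fold lower in cKO embryos and did not pass limma with Benjamini-Hochberg adjustment (log2 difference -0.94, adjusted p 0.0773), although it passed without WT 2-cell replicate 2 (0.0313), within a range of 0.0313 to 0.404 over 11 alternatives. Its fall from WT zygotes to WT 2-cell embryos was 2.89-fold (limma with Benjamini-Hochberg adjustment, adjusted p 0.00901). The fall was 4.14-fold without WT 2-cell replicate 1 and 3.21-fold without WT zygote replicate 2, and its limma call was lost without WT zygote replicate 1 (adjusted p 0.0612, with a range of 0.00497 to 0.0612 over 11 alternatives).

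Pramef8 stayed near its zygote level in WT embryos. Its values were 20.7 and 19.0 FPKM in WT and 16.4 and 16.2 in cKO zygotes, followed by 19.2 and 35.7 in WT and 6.85 and 3.32 in cKO 2-cell embryos. The WT libraries of the 2 stages overlapped, while both cKO 2-cell libraries lay under every other library. The 2-cell mean was 5.08 ± 2.50 FPKM in cKO and 27.4 ± 11.7 in WT embryos (SD, n = 2), 5.40-fold lower, and 8.28-fold lower without cKO 2-cell replicate 1. In limma with Benjamini-Hochberg adjustment, the log2 difference was -2.22 with a standard error of 0.391 and an adjusted p of 0.00967, which rose to 0.0520 without WT 2-cell replicate 2, within a range of 0.00497 to 0.115 over 11 alternatives. From cKO zygotes to cKO 2-cell embryos it fell 3.21-fold, or 4.92-fold without cKO 2-cell replicate 1 and 2.38-fold without cKO 2-cell replicate 2.

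Pramef17 and Pramef6 were low in zygotes and higher at the 2-cell stage. Pramef17 stood at 3.38 and 2.98 FPKM in WT and 2.80 and 2.19 in cKO zygotes, followed by 14.2 and 14.9 in WT and 5.99 and 3.44 in cKO 2-cell embryos. Pramef6 stood at 1.33 and 1.22 FPKM in WT and 1.69 and 1.46 in cKO zygotes, followed by 7.92 and 14.4 in WT and 3.32 and 3.55 in cKO 2-cell embryos. For both genes, every 2-cell library exceeded every zygote library, and both cKO 2-cell libraries lay between the zygotes and the WT 2-cell libraries. The rise from zygotes was 4.57-fold in WT and 1.89-fold in cKO embryos for Pramef17. For Pramef6 it was 8.73-fold in WT and 2.18-fold in cKO embryos.

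Between the genotypes at the 2-cell stage, Pramef17 was 3.09-fold lower in cKO embryos, or 2.43-fold without cKO 2-cell replicate 2. Its limma log2 difference was -1.48 with a standard error of 0.280 and a Benjamini-Hochberg adjusted p of 0.0121, and without WT 2-cell replicate 1 or 2 the limma adjusted p was 0.0526 or 0.0592, within a range of 0.00339 to 0.121 over 11 alternatives. Pramef6 was 3.25-fold lower in cKO embryos, or 2.31-fold without WT 2-cell replicate 2, and 7 of its 11 alternatives passed limma. Its limma log2 difference was -1.40 with a standard error of 0.277 and a Benjamini-Hochberg adjusted p of 0.0137, with a range of 0.00132 to 0.150.

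The 4 Pramel genes above 3 FPKM were all at the floor in the 4 zygote libraries, so their folds between stages are lower bounds. Their zygote values have no spread, yet they enter the error that limma shares over the 4 groups. The limma standard errors and p-values of these genes can therefore be too small. Pramel7, which directs UHRF1 to degradation, stood at 161 and 149.7 FPKM in WT and at 311 and 302 in cKO 2-cell embryos. Pramel6, its neighbour and close relative in embryonic stem cells, stood at 138 and 155 FPKM in WT and at 192 and 222 in cKO 2-cell embryos. In both cases the cKO libraries lay above the WT libraries. From zygotes to 2-cell embryos, Pramel7 rose at least 155-fold in WT and at least 307-fold in cKO embryos, and Pramel6 at least 146-fold in WT and at least 207-fold in cKO embryos. Median-ratio scaling, which raises the common floor, lowered the WT bounds to 99.9-fold and 94.2-fold and the cKO bounds to 276-fold and 188-fold. By rank of the cKO 2-cell mean among all genes, Pramel7 was at 416 and Pramel6 at 600.

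The Pramel7 mean at the 2-cell stage was 307 ± 6.63 FPKM in cKO and 155 ± 7.97 in WT embryos (SD, n = 2), 1.98-fold higher. In limma with Benjamini-Hochberg adjustment, the log2 difference was 0.98 with a standard error of 0.169 and an adjusted p of 0.00924, and the adjusted p ranged from 0.00321 to 0.0926 over 11 alternatives, of which 9 passed. The Pramel6 mean was 1.41-fold higher in cKO embryos, with a limma log2 difference of 0.49, a standard error of 0.185 and a Benjamini-Hochberg adjusted p of 0.0929. Without cKO 2-cell replicate 1 the limma adjusted p of Pramel6 was 0.0224, the lowest of a range that reached 0.351, and with median-ratio scaling it was 0.0262 at a log2 difference of 0.97, so 2 of 11 alternatives passed.

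Pramel4 and Pramel5 appeared at the 2-cell stage at lower levels. Pramel4 stood at 13.7 and 10.9 FPKM in WT and at 29.1 and 28.5 in cKO 2-cell embryos, with no overlap. Pramel5 stood at 22.7 and 24.5 FPKM in WT and at 19.3 and 23.5 in cKO 2-cell embryos, and these ranges overlapped. The rise from zygotes was at least 12.3-fold in WT and at least 28.8-fold in cKO embryos for Pramel4, and at least 23.6-fold in WT and at least 21.4-fold in cKO embryos for Pramel5. With median-ratio scaling the WT bounds were 7.89-fold for Pramel4 and 15.2-fold for Pramel5. Pramel4 was 2.35-fold higher in cKO than in WT 2-cell embryos (limma log2 difference 1.18, standard error 0.212, Benjamini-Hochberg adjusted p 0.0105, with a range of 0.00595 to 0.0864 over 11 alternatives). Pramel5 had a cKO to WT ratio of 0.908 as deposited and of 1.29 after median-ratio scaling, and limma gave a log2 difference of -0.14 with a Benjamini-Hochberg adjusted p of 0.655.

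The members were then counted against all genes of the table, by the fold rule of the study, which calls a gene higher when the ratio of the group means exceeds 3 and lower when the inverse ratio does. In zygotes, it called 0 of 14 members lower and 0 higher in cKO than in WT embryos, against 0.0486% and 0.104% of all genes. By limma with Benjamini-Hochberg adjustment 0 members were called in zygotes in either direction, against 0% lower and 0.0208% higher among all genes, and 0 had an unadjusted p under 0.05, against 0.584% and 2.25%. Both cKO zygote libraries lay below both WT zygote libraries for 5 members (Oog1, Oog4, Pramef8, Pramef12 and Pramef17) and above them for 2 (Oog2 and Pramef6), against 10.2% and 15.8% of all genes. The 5 lower members had ratios of group means between 0.673 for Oog1 and 0.821 for Pramef8.

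At the 2-cell stage, the fold rule called 4 members lower in cKO than in WT embryos (Oog1, Pramef6, Pramef8 and Pramef17) and 0 higher, against 13.5% and 2.84% of all genes. Leaving out WT 2-cell replicate 2 or cKO 2-cell replicate 2 changed members of this set, since Pramef6 left it without the former and Pramef17 without the latter, when Oog2 entered. With median-ratio scaling 2 were lower (Oog1 and Pramef8) and 1 higher, Pramel4 at 3.29-fold, while Pramef6 and Pramef17 were 2.31-fold and 2.27-fold lower. The limma test with Benjamini-Hochberg adjustment called 5 members lower, the same 4 and Oog4, and 2 higher, Pramel4 and Pramel7, against 24.6% and 6.16% of all genes. The lower count was 3 with median-ratio scaling, when Pramel6 made 3 higher, 3 without WT 2-cell replicate 1 and 7 without cKO 2-cell replicate 2, and the higher count was 4 without cKO 2-cell replicate 1. That higher count included Pramel3, at a log2 difference of only 0.10, which was at the floor in 7 of 8 libraries. At an unadjusted p under 0.05, limma had 8 members lower and 3 higher, against 33.4% and 9.14% of all genes. For 8 of 14 members, neither cKO library reached the lower WT library, against 43.4% of all genes, and for 3 neither fell to the higher WT library, against 14.0%. The 8 were the 4 oogenesins and the 4 Pramef genes, and the 3 were Pramel4, Pramel6 and Pramel7. With 2 libraries against 2, the smallest two-sided p of an exact permutation test on a single gene is 0.333. Of the 7 limma calls, 0 were kept when the spread was allowed to differ between groups or when only the 4 libraries compared were fitted.

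From WT zygotes to WT 2-cell embryos, the fold rule called 2 members lower (Oog2 and Oog4) and 6 higher (Pramef6, Pramef17 and Pramel4 to Pramel7), against 8.78% and 26.0% of all genes. Without WT zygote replicate 2 or WT 2-cell replicate 1, Pramef12 made 3 lower, and with median-ratio scaling Oog1 and Pramef12 made 4. By limma with Benjamini-Hochberg adjustment, 4 members were lower and 7 higher, against 15.5% and 34.2% of all genes, and the limma counts at an unadjusted p under 0.05 were also 4 and 7, against 18.0% and 38.0%. The lower count was 2 without WT zygote replicate 1, since Oog1 and Pramef12 were then not called, and 3 without either WT 2-cell library, since Oog1 was not, and 1 of the higher was Pramel1 (limma adjusted p 0.0497), without which the higher count was 6 when WT zygote replicate 1, WT zygote replicate 2, WT 2-cell replicate 2 or either cKO zygote library was left out. Without cKO 2-cell replicate 1 or 2, Oog3 was also called lower. From cKO zygotes to cKO 2-cell embryos, which share no library with that comparison, the fold rule called 5 members lower (Oog1, Oog2, Oog4, Pramef8 and Pramef12) and 4 higher (Pramel4 to Pramel7), against 19.2% and 22.8% of all genes. Without cKO 2-cell replicate 2, Pramef8 was not called and 4 were lower. With median-ratio scaling Pramef8 was 2.95-fold lower and was also not called.

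Medians described the same set. Between the genotypes in zygotes, the median log2 ratio was 0.00 for the members, which the 6 Pramel genes at the floor set, and 0.00 for all genes. Among the 8 members above the floor in all 4 zygote libraries it was -0.29, against 0.03 for 9233 genes. It was -0.82 for the members against -0.38 for all genes between the genotypes at the 2-cell stage. Among the 12 members above the floor in all 4 of the 2-cell libraries the median was -0.99, against -0.31 for 9086 genes. From zygotes to 2-cell embryos the median was 0.80 for the members and 0.41 for all genes in WT, and 0.32 and 0.00 in cKO embryos. Among the 8 members above the floor in all libraries compared, the median was -0.92 against 0.15 for all such genes in WT and -1.98 against -0.03 in cKO embryos. That filter removes every Pramel gene for its zygote values, including the 4 that rose, so the lower median follows in part from the filter.

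Scaling moved the comparison of the genotypes at the 2-cell stage as a whole. The median log2 ratio of the 9086 genes above the floor as deposited was -0.31, median-ratio scaling moved it to 0.16, and scaling each library to the same sum moved it to -0.53. Relative to the median as deposited, the oogenesins changed by -2.20 (Oog1), -0.74 (Oog2), -0.38 (Oog3) and -0.64 (Oog4) on the log2 scale. The Pramef genes changed by -1.32 (Pramef17), -1.39 (Pramef6), -2.12 (Pramef8) and -0.72 (Pramef12) relative to that median. The Pramel genes changed by 1.54 (Pramel4), 0.17 (Pramel5), 0.81 (Pramel6) and 1.29 (Pramel7). Of these 12 members, Pramel5 alone changed direction against WT between the scalings, from a log2 ratio of -0.14 as deposited to 0.36 with median-ratio scaling and -0.40 with equal sums. In zygotes the ratio of Oog3, 1.00 as deposited, was the only one of the 12 whose direction depended on the scaling.

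Whether the genotype difference itself differed between the stages was tested as the interaction in limma with Benjamini-Hochberg adjustment. It called 0 of 14 members in either direction, against 10.2% of all genes lower and 1.58% higher, while limma gave an unadjusted p under 0.05 to 5 members on the lower and 2 on the higher side, Pramel4 and Pramel7, against 25.5% and 5.34% of all genes. For the 6 Pramel genes the test says nothing about the stages, since all of their zygote values were at the floor and the interaction restates the difference at the 2-cell stage. The log2 interaction was -1.94 for Oog1 (limma adjusted p 0.0503), -1.58 for Pramef6 (0.0525) and -1.96 for Pramef8 (0.0715). Some of these lay just outside the threshold and single libraries carried them across it. Without cKO 2-cell replicate 1, limma called Oog1 (adjusted p 0.0339), Pramef17 (0.0133) and Pramef8 (0.0303). Without cKO 2-cell replicate 2 it called Oog1 (limma adjusted p 0.0150), Oog2 (0.00944) and Oog3 (0.0471). Pramef6 was called by limma without WT 2-cell replicate 1 (adjusted p 0.00254) or 2 (0.00856). Over 14 alternatives the limma adjusted p ranged from 0.0150 to 0.216 for Oog1, from 0.00254 to 0.300 for Pramef6, from 0.0303 to 0.216 for Pramef8 and from 0.0133 to 0.336 for Pramef17.

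Members with different patterns were neighbours. In GENCODE M1 on mm9, 10 of the 14 members lay within 1.01 Mb of chromosome 4, from the start of Pramel1 at chr4:142984331-142990063 to the end of Pramef12 at chr4:143981577-143998367. Pramel7 (chr2:87329244-87337250) and Pramel6 (chr2:87346722-87351029) were neighbours within 0.0218 Mb on opposite strands. Oog1 lay on chromosome 12 (chr12:88943638-88949795) and Pramel3 on the X chromosome (chrX:131836846-131847191). Within the chromosome 4 cluster, Oog3 (chr4:143747460-143752566) and Oog2 (chr4:143780622-143787534) lay between Pramel4 (chr4:143649029-143659230) and Pramel5 (chr4:143860536-143870391). Members that were high in zygotes and members at the floor in zygotes were thus interleaved there. Of the members in that stretch, Pramel4 alone was called higher in cKO 2-cell embryos by limma with Benjamini-Hochberg adjustment.

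**Figure D3:**
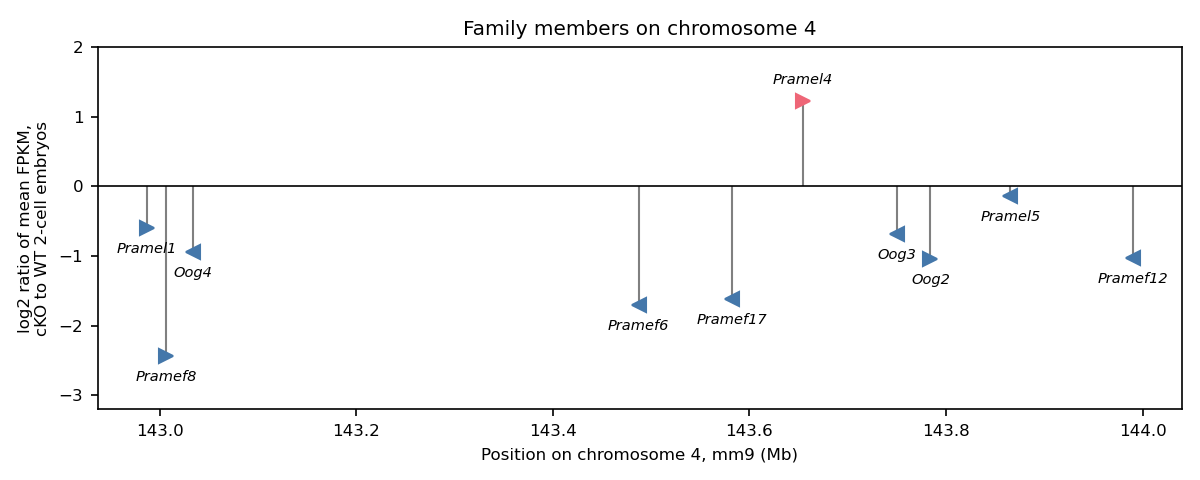
Map of the 10 members on chromosome 4 (mm9, position in Mb) with the strand of each gene, and the log2 ratio of the cKO to the WT mean at the 2-cell stage at each position. Pramel4 lies above 0 between Pramef17 and Oog3, which lie below 0; the sign of Pramel5 changes with scaling.

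Near-identical copies limit how well reads can be assigned to some members. Of the 50-base words in the annotated exons of each member, as long as the trimmed reads, 96.6% of those of Oog1, 89.0% of Pramel4, 81.6% of Pramel3, 73.5% of Pramef17, 39.7% of Oog2, 33.5% of Pramef6 and 24.6% of Pramel5 also occurred in another annotated protein-coding gene. The share was 1.16% for Oog3, 0.707% for Oog4 and 0% for Pramef12, Pramef8, Pramel1, Pramel6 and Pramel7. The values of the 7 genes in the first group are therefore uncertain, since the authors' handling of reads with several matches could divide them among copies. Copies outside protein-coding transcripts were not searched, so the low shares of the other genes do not mean that their reads map uniquely. The copy with the largest overlap was Gm2042 for Oog1, Gm13102 for Pramel4, Gm13128 for Pramef17 and Gm13084 for Oog2. Oog1 also overlaps BB287469 on the same strand, a separate entry of the table that was at the floor in all zygotes and at 16.6 and 24.8 FPKM in WT and 5.76 and 20.7 in cKO 2-cell embryos. Pramef12 overlaps D530049N12Rik on the opposite strand, and the reads of the 2 genes cannot be told apart without strand.

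Promoter sequences from RefSeq (GRCm38.p6) were available for 13 of the 14 members; Pramef8 was not among them. The promoters of the 4 oogenesins, on chromosomes 4 and 12, are shown because the cKO values of each gene lay under its WT values at the 2-cell stage, and its WT 2-cell values under those of WT zygotes. Pramef12 had the same order of groups, but its promoter aligned with those of the oogenesins at scores of only 10 to 12, on the scale explained below, and it is not shown. Not all of these differences were called. Oog2 and Oog3 did not pass between the genotypes (limma with Benjamini-Hochberg adjustment, adjusted p 0.0745 and 0.0853, or 0.00430 and 0.0190 without cKO 2-cell replicate 2), nor did Oog3 between the WT stages (limma adjusted p 0.159, or 0.0331 and 0.0332 without cKO 2-cell replicate 1 and 2), and by the fold rule Oog1 alone was lower in cKO 2-cell embryos, with Oog2 added when cKO 2-cell replicate 2 was left out. Each line gives the 120 bases before the annotated start, 5′ to 3′, with capitals for the exact runs of at least 8 bases that all 4 share.
Oog1: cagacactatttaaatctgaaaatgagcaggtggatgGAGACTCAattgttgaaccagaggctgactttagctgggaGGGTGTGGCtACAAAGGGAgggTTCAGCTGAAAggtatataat
Oog2: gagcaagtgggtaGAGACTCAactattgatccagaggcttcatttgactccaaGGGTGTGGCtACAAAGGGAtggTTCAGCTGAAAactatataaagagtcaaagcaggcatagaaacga
Oog3: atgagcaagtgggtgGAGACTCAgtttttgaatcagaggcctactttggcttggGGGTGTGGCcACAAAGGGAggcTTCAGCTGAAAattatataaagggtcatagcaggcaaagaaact
Oog4: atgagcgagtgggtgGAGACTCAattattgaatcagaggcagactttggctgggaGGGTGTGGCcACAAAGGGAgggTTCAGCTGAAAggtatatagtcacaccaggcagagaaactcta
In mm9 these stretches matched exactly at chr4:143780500-143780619 on the plus strand for Oog2, chr4:143752555-143752674 on the minus strand for Oog3 and chr4:143040228-143040347 on the minus strand for Oog4. The Oog1 stretch matched at 3 places on chromosome 12, at chr12:88943495-88943614 beside Oog1 and at chr12:89192804-89192923 and chr12:89420287-89420406. The shared runs occur in the same order in all 4 promoters. GAGACTCA was present in 1.45% of 27025 RefSeq promoters of 300 bases, GGGTGTGGC in 1.40%, ACAAAGGGA in 0.492% and TTCAGCTGAAA in 0.0592%.

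Local alignment scores of the 300-base promoters, in which a higher score is a longer or closer match, were 123 to 169 for the 6 pairs of oogenesins. The median over the other 72 pairs of members was 11, and the highest of those were 232 for Pramel4 with Pramel5 and 162 for Pramef17 with Pramel7. These pairs are shown because their members differed in expression, with Pramel4 higher in cKO 2-cell embryos where Pramel5 overlapped WT, and Pramef17 lower where Pramel7 was higher. Capitals mark the longest run shared by the pair in the 120 bases before the RefSeq start, or, for Pramef17 and Pramel7, the first of 2 shared runs of the same length. The Pramel7 stretch lies inside the gene as GENCODE M1 draws it, downstream of the start in that annotation. The stretches of Pramel5 and, above, of Oog3 overlap the starts of their genes in that annotation by a few bases.
Pramel4: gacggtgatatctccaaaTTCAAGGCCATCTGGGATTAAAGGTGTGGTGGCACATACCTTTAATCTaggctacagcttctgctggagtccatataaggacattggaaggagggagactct
Pramel5: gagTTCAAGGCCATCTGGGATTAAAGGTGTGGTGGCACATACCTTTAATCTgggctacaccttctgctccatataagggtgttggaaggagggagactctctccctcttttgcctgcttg
Pramef17: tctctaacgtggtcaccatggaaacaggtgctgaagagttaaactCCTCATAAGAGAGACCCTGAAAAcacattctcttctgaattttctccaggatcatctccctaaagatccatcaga
Pramel7: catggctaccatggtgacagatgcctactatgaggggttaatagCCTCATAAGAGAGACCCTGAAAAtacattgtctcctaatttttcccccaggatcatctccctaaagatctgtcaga
In mm9 they matched at chr4:143648908-143649027 on the plus strand for Pramel4, chr4:143870370-143870489 on the minus strand for Pramel5, chr4:143584273-143584392 on the minus strand for Pramef17 and chr2:87332576-87332695 on the minus strand for Pramel7. The shared run of Pramel4 and Pramel5, of 48 bases, was present in 2 of the 27025 promoters (0.00740%), and that of Pramef17 and Pramel7, of 23 bases, in 3 (0.0111%).

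Short motifs were counted on both strands of the same 120 bases. CANNTG, the E-box that basic helix-loop-helix factors such as FIGLA and SOHLH1 bind, was found in 11 of 13 members and 40.0% of all promoters. CAGCTG, one of its forms, was found in the 4 oogenesins and Pramel3 and in 6.62% of all promoters. TATATA was found in the 4 oogenesins and Pramef6 and in 2.75% of all promoters, and TATAAA in Oog2 and Oog3 and in 6.76%. Pramef12 had none of these motifs. CAGCTG and TATATA were chosen after the oogenesin sequences were read. CCAAT was found in 4 members (Pramel1, Pramel3, Pramel4 and Pramel6) and 22.1% of all promoters, and GGGCGG in Pramel1 and 26.9%.

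Further family genes stood in the table under older names. RefSeq lists 52 genes named Oog, Pramel or Pramef, and 18 of them matched entries with other names through their synonyms. This set was formed after the data were seen and is given as a description. Of the 18, 17 had a mean above 3 FPKM in at least 1 group. The fold rule called 0 of 18 lower and 0 higher in cKO than in WT zygotes, beside 0.0486% and 0.104% of all genes, and at the 2-cell stage 3 lower and 0 higher, or 7 lower without cKO 2-cell replicate 2, beside 13.5% lower and 2.84% higher among all genes. From WT zygotes to WT 2-cell embryos it called 8 lower and 8 higher, beside 8.78% and 26.0% of all genes. In zygotes the cKO values were all under the WT values for 2 of these genes and all over them for 5, beside 10.2% and 15.8% of all genes. At the 2-cell stage they were all under for 11 and all over them for 2, beside 43.4% and 14.0% of all genes, and the median log2 ratio was -0.87, beside -0.82 for the 14 members.

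Among these genes, Gm13023 (now Pramel25) had the highest zygote level, with 1329 and 1195 FPKM in WT and 1052 and 1077 in cKO zygotes, followed by 213 and 189 in WT and 40.4 and 75.2 in cKO 2-cell embryos. Its groups fell in that order without overlap, as those of Oog4 did. Gm13103 (Pramel27) stood at 227 and 162 FPKM in WT and 191 and 172 in cKO zygotes, followed by 66.0 and 50.9 in WT and 7.44 and 16.0 in cKO 2-cell embryos. Gm12794 (Pramel19) was at the floor in all zygotes and at 69.1 and 145 FPKM in WT and 11.3 and 17.5 in cKO 2-cell embryos. Its level after the rise was thus lower in cKO embryos (limma with Benjamini-Hochberg adjustment, adjusted p 0.00552). Its zygote values, all at the floor, likewise add no spread to the limma error. In Pramel4, Pramel6 and Pramel7 the cKO libraries lay above the WT libraries, although Pramel6 was not called. B020004J07Rik (Pramel17) and Gm13109 (Pramel16), likewise at the floor in all zygotes, had lower values in cKO than in WT 2-cell embryos without overlap. B020004J07Rik stood at 122 and 155 FPKM in WT and at 43.3 and 88.8 in cKO 2-cell embryos. Gm13109 stood at 67.9 and 89.1 FPKM in WT and at 8.05 and 46.4 in cKO 2-cell embryos. Neither difference passed limma with Benjamini-Hochberg adjustment (adjusted p 0.0560 for B020004J07Rik and 0.0907 for Gm13109). Gm13128 (Pramel30), the copy that shares most with Pramef17, was at the floor in all zygotes and at 8.30 and 13.7 FPKM in WT and 16.4 and 17.7 in cKO 2-cell embryos, with the cKO libraries above the WT libraries. D5Ertd577e (Pramel48) was the other of the 2 genes with both cKO libraries above WT, at 24.3 and 21.7 FPKM in WT and 29.3 and 40.9 in cKO 2-cell embryos.

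Transcription regulators of the oocyte were read from a list of 8 genes, all of them in the table. By the fold rule, 0 of 8 differed between the genotypes in zygotes. At the 2-cell stage 3 were lower and 0 higher in cKO than in WT embryos, and from WT zygotes to WT 2-cell embryos 4 fell and 2 rose. The shares of all genes were 0.0486% lower and 0.104% higher between the genotypes in zygotes, 13.5% and 2.84% between them at the 2-cell stage, and 8.78% and 26.0% between the WT stages. The 3 were Lhx8, Tbpl2 and Sohlh1. Sohlh1 was at the floor in all zygotes and in both cKO 2-cell libraries, and at 5.94 and 6.73 FPKM in WT 2-cell embryos. By limma with Benjamini-Hochberg adjustment, Nobox joined these 3, and 0 of 8 were higher in cKO than in WT 2-cell embryos, against 24.6% lower and 6.16% higher among all genes. Taf4b and Gtf2a1l had higher means. The Gtf2a1l libraries overlapped between the genotypes, and its ratio of 1.20 became 0.758 without cKO 2-cell replicate 2. Nobox, a homeobox factor, had a mean of 108 FPKM in WT and 99.5 in cKO zygotes, followed by 16.3 and 14.8 in WT and 5.81 and 6.88 in cKO 2-cell embryos. Lhx8, a LIM-homeobox factor, stood at 55.4 and 62.8 FPKM in WT and 50.1 and 59.4 in cKO zygotes, followed by 16.0 and 20.3 in WT and 5.60 and 2.24 in cKO 2-cell embryos, where the mean was 4.64-fold lower, or 8.13-fold without cKO 2-cell replicate 1. Both were alike between the genotypes in zygotes and lower without overlap in cKO 2-cell embryos. Tbpl2, the TBP paralogue of oocytes, stood at 3.67 and 3.29 FPKM in WT 2-cell embryos and at the floor in both cKO 2-cell libraries, at least 3.48-fold lower. Figla stood at 4.66 and 3.32 FPKM in WT zygotes and 5.35 and 3.38 in cKO zygotes, and at the 2-cell stage it was above the floor only in WT replicate 1, at 2.11 FPKM. Taf4b, a TFIID subunit, went the other way, from 32.3 and 32.4 FPKM in WT to 81.3 and 45.1 in cKO 2-cell embryos.

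Genes of the Cullin 2 ligase, of UHRF1 and of DNA methylation were read from a list of 11 symbols, of which 9 were in the table. The list also holds Vhl and the DNA methyltransferase genes, which are not described here as partners or target of PRAMEL7. The elongin genes stood in the table only under older names. By the fold rule, 0 of 9 differed between the genotypes in zygotes, beside 0.0486% lower and 0.104% higher among all genes, and 1 was lower (Dnmt3b) and 1 higher (Tceb1) in cKO 2-cell embryos, beside 13.5% and 2.84% of all genes. By limma with Benjamini-Hochberg adjustment 1 was lower (Dnmt3b) and 1 higher (Cul2) at that stage, beside 24.6% and 6.16% of all genes. Cul2, the ligase scaffold, stood at 9.18 and 9.72 FPKM in WT and 7.83 and 9.03 in cKO zygotes, followed by 12.6 and 16.7 in WT and 50.1 and 34.0 in cKO 2-cell embryos. Tceb1, the gene of elongin C, stood at 1407 and 1085 FPKM in WT and at 2138 and 6301 in cKO 2-cell embryos, and its difference of 3.39-fold (limma with Benjamini-Hochberg adjustment, adjusted p 0.0609) was 1.72-fold without cKO 2-cell replicate 2. Rbx1, the RING subunit, stood at 155 and 113 FPKM in WT and at 160.0 and 375 in cKO 2-cell embryos, with a limma adjusted p of 0.174 and a ratio of 1.19 without cKO 2-cell replicate 2. At the 2-cell stage the cKO values were entirely over the WT values for 5 of the 9 genes (these 3, Tceb2 and Vhl) and entirely under them for 2 (Uhrf1 and Dnmt3b), beside 14.0% and 43.4% of all genes.

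Uhrf1, the target, stood at 147 and 161 FPKM in WT and 129.7 and 139.9 in cKO zygotes, followed by 41.2 and 43.4 in WT and 27.4 and 10.6 in cKO 2-cell embryos. Its libraries were lower in cKO than in WT embryos at both stages without overlap, with a 2-cell mean 2.23-fold lower, or 4.00-fold without cKO 2-cell replicate 1. Neither difference passed limma with Benjamini-Hochberg adjustment (adjusted p 1.00 in zygotes and 0.0601 at the 2-cell stage). Dnmt1 stood at 10.6 and 8.98 FPKM in WT and at 10.3 and 4.83 in cKO 2-cell embryos, which overlapped. RNA levels do not measure the UHRF1 protein.

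The genes most like the leading members were found by the distance between centred log2(FPKM + 1) means over the 4 groups, among 10960 genes. For Oog3, the member with the highest mean, they were Laptm5, Sipa1l2, Pold3, Prpf38b and Dnajc1, at distances of 0.04 to 0.07. Pold3 stood at group means of 94.7 FPKM in WT and 97.8 in cKO zygotes, followed by 65.3 in WT and 40.9 in cKO 2-cell embryos. For Pramel7, taken for the highest ratio of WT 2-cell embryos to zygotes with zygotes set to the floor, which leaves its order against Pramel6 unknown, they were Trim43a, Cdk2ap1, Fcgr3, Nme2 and Med29, at distances of 0.11 to 0.36. Trim43a was at the floor in all zygotes and stood at 183 and 152 FPKM in WT and at 226 and 373 in cKO 2-cell embryos.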

How the data were processed

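Reads had been trimmed to 50 bases and mapped to mm9 with TopHat2 2.1.1, and the authors deposited FPKM per gene from Cufflinks 2.2.1, with values under 1 set to 1 and genes under 1 in every library removed. The gene annotation and the further normalization behind these normalized FPKM are not stated. Without counts, the depth and the counting error are unknown, and precision rests on 2 libraries per group. The ChIP-seq samples for H2AK119ub1 do not enter these results.

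Members and lists were chosen with earlier results of these data known. All members were described, those with a mean above 3 FPKM in at least 1 of 4 groups in every library, as were Usp16, genes of the lists and the 5 genes nearest to 2 leading members. The fold rule used the ratio of group means with a threshold of 3 and no test. limma 3.58.1 in R 4.3.3 was fitted to log2(FPKM + 1) of all 14392 genes, with 4 groups in 1 model, 4 residual degrees of freedom, a trend in the prior and Benjamini-Hochberg adjustment at 0.05. A group whose values are all at the floor adds no spread to the shared error, which can make p-values too small. Other steps used Python 3.11.15, numpy 2.4.6, pandas 2.3.3, matplotlib 3.10.9 and biopython 1.88, and the calculations were tested on simulated data. Alternatives covered the pseudocount, threshold, type of mean, scaling, filter, model, replicate block and the omission of each library in turn. The ranges of limma adjusted p over alternatives include the omission of libraries compared, but not of libraries outside the comparison, nor the crossed block. Scaled values were floored again at the highest scaled floor of the 8 libraries. Positions and exon words came from GENCODE M1 on mm9, and promoters from RefSeq.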

Additional observations from a re-analysis of the deposited data

Results flagged for a closer look

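Oog2 and Pramef6 each had the cKO values entirely over the WT values in zygotes and entirely under them at the 2-cell stage. The genotype difference at the 2-cell stage minus that in zygotes was -1.31 for Oog2 and -1.58 for Pramef6 on the log2 scale. In the limma interaction test with Benjamini-Hochberg adjustment neither was past the threshold, with adjusted p-values of 0.162 for Oog2 and 0.0525 for Pramef6. The zygote differences were small, with cKO to WT ratios of 1.16 for Oog2 and 1.23 for Pramef6, and Pramef6 did not exceed 1.69 FPKM in any zygote library. Without cKO 2-cell replicate 2 the interaction of Oog2 was -1.90 (limma adjusted p 0.00944), and Pramef6 passed without WT 2-cell replicate 1 or 2 (limma adjusted p 0.00254 and 0.00856, in a range of 0.00254 to 0.300 over 14 alternatives). Other annotated protein-coding genes share 39.7% of the 50-base words of Oog2 and 33.5% of those of Pramef6.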

How the results depend on the processing

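Among log2 ratios of members recomputed under alternatives of the fold rule, 257 moved by less than the spread between replicates and 22 moved by more, and none that had been called changed sign. Among limma differences of members, 307 kept their side of the threshold, 27 came to pass it and 28 no longer passed it. Among counts and sums, 186 stayed within 1.5 times the reported count or within the spread, and 30 did not.

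For members lower in cKO than in WT 2-cell embryos by the fold rule, reported as 4, a pseudocount of 1 gave 2, requiring every library to differ gave 1, and median-ratio scaling gave 2. For those higher, reported as 0, a 2-fold threshold gave 1 and median-ratio scaling gave 1, Pramel4. For members lower in WT 2-cell embryos than in WT zygotes, reported as 2, a 2-fold threshold gave 4 and median-ratio scaling gave 4. By limma, members lower in cKO 2-cell embryos, reported as 5, numbered 3 with median-ratio scaling and 0 with only the 4 libraries compared or with weights by group; those higher, reported as 2, numbered 3 with median-ratio scaling, with Pramel6, and 0 under the latter settings, where fewer libraries or a group's own spread set the error. In the limma interaction, reported as 0 lower and 0 higher, a pseudocount of 0.1 gave 1 lower, a filter on a mean of at least 3 FPKM gave 2 lower, median-ratio scaling gave 2 higher and quantile normalization gave 1 higher. The higher calls were Pramel4 and Pramel7, whose zygote values were all at the floor, so they restate the difference at the 2-cell stage. The family sum, reported as 2288 in WT and 1695 in cKO 2-cell embryos, became 1855 and 1946 with median-ratio scaling, and 2443 and 1513 with scaling to the same sum. These scalings of the sums were chosen after seeing the data. Beyond what the settings themselves change, the cause was not tested.

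Leaving out 1 library of those compared, with the lone library of a group taken to vary like the others, gave 3 to 7 members lower and 2 to 4 higher in cKO 2-cell embryos by limma, 2 to 4 lower and 6 to 7 higher in WT 2-cell embryos than in zygotes, and 0 to 3 lower and 0 to 2 higher in the interaction. Libraries outside a comparison also changed its calls through the error, since Oog4 was not called between the genotypes without any 1 of the zygote libraries, and Oog3 was called between the WT stages without either cKO 2-cell library, where Pramel1 was not called without either cKO zygote library. By the fold rule the ranges were 3 to 4 lower in cKO 2-cell embryos, 2 to 3 lower in WT 2-cell embryos than in zygotes, and 4 to 5 lower in cKO 2-cell embryos than in cKO zygotes. The 4 higher by limma included Pramel3, which was at the floor in 7 libraries and had a log2 difference of only 0.10.

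The libraries of the groups share only a replicate number. Deviations of same-numbered WT and cKO libraries correlated at 0.524 across 9233 genes in zygotes and at -0.311 across 9086 genes at the 2-cell stage. With the replicate block, limma gave 4 lower and 2 higher in cKO 2-cell embryos and 4 lower and 6 higher in WT 2-cell embryos than in zygotes, and the fold rule gave 3 lower, with Pramef12, in the latter comparison; other counts of calls were unchanged. A crossed block, chosen after seeing the data, gave 6 lower and 2 higher by limma and 4 lower and 0 higher by the fold rule in cKO 2-cell embryos. Alternatives for the lists and the older names were also added after the data were seen.

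FPKM without counts gives no depth, the floor of 1 hides lower values, and 2 libraries per group limit every test.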
